A study of Sus scrofa with 6 samples.

Results

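The glycolytic enzymes carry glucose through a chain of cytosolic steps to pyruvate and lactate and yield ATP without oxygen. Fast muscle fibres depend on this route for brief, strong contraction, and the longissimus dorsi (loin muscle) is rich in such fibres. Several steps have isozymes, of which some are typical of muscle (PFKM, PGAM2, ENO3, LDHA) and others are made in most cells. The enzymes considered here were HK2, GPI, PFKM, ALDOA, TPI1, GAPDH, PGK1, PGAM2, ENO3 and LDHA, chosen by gene symbol or, where the array's annotation gave only a placeholder symbol, by a title that names the enzyme. Of these 10 genes, 8 had a probe set, out of 6468 named genes on the array, with 11 probe sets among 23999 apart from the AFFX controls. HK2 (the hexokinase of muscle) and ALDOA (the aldolase of muscle) had no probe set under this rule and were not analysed here as named genes.

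The samples were longissimus dorsi of male piglets of 25 days, 3 of the Shaziling breed, an indigenous Chinese pig, and 3 of the Yorkshire breed, a lean commercial pig. Total RNA of each animal was hybridised to 1 Affymetrix porcine array. The 3 animals of a breed were full siblings and the breeds came from separate farms, per the labels' protocols, so breed, litter and farm cannot be told apart, and any p-value here reflects only how far siblings vary. In whole muscle, fewer cells of a type and less RNA per cell cannot be told apart either. The values are log2 MAS5 signals, a summary of the probes of a probe set, and each has a Present, Marginal or Absent call. A signal says nothing of the level of 1 gene against another, so each probe set was compared with itself between animals.

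The arrays called 56.3% to 59.9% of probe sets Present in Shaziling and 58.2% to 60.6% in Yorkshire, and the highest log2 signal of an array was 15.50 to 15.85 in Shaziling and 15.34 to 15.56 in Yorkshire. For the actin controls, the 3' minus 5' log2 signal was 4.16, 4.23 and 4.98 in Shaziling and 5.11, 4.82 and 4.97 in Yorkshire. For the GAPDH controls it was -0.04 to 0.21 in Shaziling and 0.04 to 0.12 in Yorkshire. The part of RNA quality in the values was not tested. The tissue label was matched by the 9 tested of 12 skeletal muscle markers, all Present on every array, among them the actin ACTA1, the creatine kinase CKM and the myosin MYH4. Breeds were compared with limma over 14413 probe sets Present on at least 3 of 6 arrays, with Benjamini-Hochberg adjustment and a threshold of adjusted p under 0.05. Of these, 0.215% passed the threshold (31 probe sets), and the median log2 fold change, Shaziling minus Yorkshire, was -0.04.

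No glycolytic enzyme differed between the breeds beyond the spread between animals in the test over all probe sets. None of the 11 probe sets passed the threshold (0 higher and 0 lower), against 0.215% of all tested probe sets, and none had an unadjusted limma p under 0.05, against 10.4% of all. All 11 were Present on all 6 arrays, so none was lost to the filter. Taking the probe set of highest mean signal for each gene, 5 of 8 genes had positive and 3 had negative log2 fold changes, from -0.24 (PGK1) to 0.25 (PFKM), with a median of 0.10. Of all tested probe sets 46.2% were positive. The 95% interval of every one of these 8 genes lay within 2-fold in either direction and included 0. Under quantile normalization the median of the 8 was -0.03, under cyclic loess it was -0.05 and with array weights it was -0.03, so its sign depended on the setting.

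The first reaction that the array covered is that of GPI, which turns glucose 6-phosphate into fructose 6-phosphate. Its log2 signal was 14.48, 14.01 and 13.53 in Shaziling replicates 4, 5 and 6, against 14.12, 13.51 and 14.47 in Yorkshire replicates 1, 2 and 3. High and low animals occurred in both breeds, and the groups overlapped over nearly their whole range. The log2 fold change was -0.03 (SE 0.28, 95% interval -0.66 to 0.60, limma adjusted p = 0.982). Its sign was positive once Shaziling replicate 6 (0.21), Yorkshire replicate 3 (0.19) or Yorkshire replicate 1 (0.02) was left out. The probe set lists GPI together with a placeholder gene whose title is the same enzyme. The file places it on chromosome 6 from 29417869 to 29445223, with an alignment identity of only 52.99%.

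PFKM, the muscle phosphofructokinase that commits sugar to glycolysis, had log2 signals of 14.67, 14.90 and 14.64 in Shaziling and 14.58, 14.29 and 14.59 in Yorkshire. Every Shaziling animal lay above every Yorkshire animal, and Yorkshire replicate 2 was the lowest. The means were 14.74 ± 0.14 in Shaziling and 14.48 ± 0.17 in Yorkshire (SD, n = 3 each), a log2 fold change of 0.25 (SE 0.13, 95% interval -0.05 to 0.55, limma adjusted p = 0.559), or 1.19-fold. It was 0.13 under quantile normalization, 0.12 under cyclic loess and 0.15 without Yorkshire replicate 2.

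Aldolase, which splits fructose 1,6-bisphosphate, was represented by a probe set with no gene symbol that the array's target description calls highly similar to human aldolase A; it was picked after its values were seen and is not counted among the members. It had 13.96, 14.27 and 13.79 in Shaziling and 13.81, 14.06 and 13.79 in Yorkshire, ranges that overlapped, with a log2 fold change of 0.12 ± 0.16 (SE), with an adjusted p of 0.825 in limma.

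TPI1, the isomerase that interconverts the triose phosphates, had the largest spread within a breed of the member probe sets. Its log2 signal was 14.44, 13.99 and 13.32 in Shaziling and 13.90, 13.14 and 14.21 in Yorkshire. The order of the animals resembled that of GPI, with Shaziling replicate 4 and Yorkshire replicate 3 high and Shaziling replicate 6 and Yorkshire replicate 2 low. The spread within a breed was 0.56 (SD), above that of 82.4% of tested probe sets, and that of GPI was 0.48, above 74.5%. The log2 fold change of TPI1 was 0.17 (SE 0.32, 95% interval -0.55 to 0.89, limma adjusted p = 0.892), and single animals decided its sign. Leaving out Yorkshire replicate 2 gave -0.14 and leaving out Shaziling replicate 4 gave -0.09, while it was 0.40 when Yorkshire replicate 3 was dropped and 0.47 when Shaziling replicate 6 was. The probe set lies on chromosome 5 from 59905062 to 59906981 in the file's coordinates, with an alignment identity of 71.63%.

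GAPDH, the dehydrogenase that makes the NADH of glycolysis and that is widely used as a reference transcript, had 4 probe sets, here numbered by falling mean signal. The first had 14.85, 14.98 and 14.81 in Shaziling and 14.96, 14.72 and 14.97 in Yorkshire. Its log2 fold change was -0.01 (SE 0.12, limma adjusted p = 0.988) and its 95% interval ran from 0.830-fold to 1.19-fold. The next, built on the same mRNA, had 14.81, 15.08 and 14.85 against 14.81, 14.76 and 14.81 in Yorkshire, a log2 fold change of 0.12 ± 0.11 (SE), with an adjusted p of 0.760 in limma. The breeds overlapped or met in both of these bright probe sets.

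The dim GAPDH probe sets were built on a partial GAPDH mRNA entry. The brighter of them had 9.18, 9.66 and 8.91 in Shaziling and 8.54, 9.09 and 8.28 in Yorkshire, with overlap through Shaziling replicate 6 and Yorkshire replicate 2. Its log2 fold change of 0.61 (SE 0.29, 95% interval -0.04 to 1.27, unadjusted p = 0.0618, limma adjusted p = 0.514) was the largest of any member probe set and did not pass. In a fit that also held each array's share of Present calls, chosen after seeing the data, it was 0.33 (limma adjusted p = 0.690). The dimmest had 5.27, 5.29 and 5.95 in Shaziling against 5.74, 5.25 and 5.56 in Yorkshire (log2 fold change -0.02, SE 0.40). In addition, the array holds 9 control probe sets for GAPDH, which lie outside the members, with differences between breed means of -0.04 to 0.14, of which 6 were positive. GAPDH has near-identical copies in mammalian genomes, and which of them a probe set reads was not tested.

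PGK1, an ATP-yielding kinase of the pathway encoded on the X chromosome, was the member with the lowest fold change. Its log2 signal was 14.69, 14.98 and 14.55 in Shaziling and 15.06, 14.86 and 15.02 in Yorkshire. Shaziling replicates 4 and 6 lay below all Yorkshire animals, while replicate 5 lay among them. The log2 fold change was -0.24 (SE 0.13, 95% interval -0.54 to 0.07, limma adjusted p = 0.589), or -0.36 under quantile normalization (limma adjusted p = 0.306) and -0.14 without Shaziling replicate 6.

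PGAM2, the muscle phosphoglycerate mutase, had 14.93, 15.09 and 14.83 in Shaziling and 14.69, 14.81 and 14.91 in Yorkshire. The groups overlapped through Shaziling replicate 6 and Yorkshire replicate 3, and the log2 fold change was 0.15 (SE 0.12, 95% interval -0.12 to 0.42, limma adjusted p = 0.708). Under quantile normalization it was 0.04 and under cyclic loess 0.01. ENO3, the muscle enolase, had 15.00, 15.25 and 15.13 in Shaziling and 15.15, 14.99 and 15.12 in Yorkshire. Its groups overlapped almost fully, with a log2 fold change of 0.04 (SE 0.11, 95% interval -0.21 to 0.29, limma adjusted p = 0.930), and -0.10 under quantile normalization and under cyclic loess.

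LDHA, the lactate dehydrogenase subunit that predominates in fast muscle and turns pyruvate into lactate, had 15.30, 15.59 and 15.32 in Shaziling and 15.26, 15.07 and 15.26 in Yorkshire. All Shaziling animals lay above all Yorkshire animals, with Shaziling replicate 5 the highest and Yorkshire replicate 2 the lowest. The means were 15.40 ± 0.16 in Shaziling and 15.20 ± 0.11 in Yorkshire (SD, n = 3 each), a log2 fold change of 0.20 (SE 0.12, 95% interval -0.07 to 0.47, limma adjusted p = 0.600), or 1.15-fold. It was 0.08 under quantile normalization, 0.05 under cyclic loess, 0.11 without Shaziling replicate 5 and 0.14 without Yorkshire replicate 2. On every array LDHA lay 0.20 to 0.30 below the highest signal of that array. ENO3 lay 0.31 to 0.60 below it, PGK1 0.40 to 0.98, the first GAPDH probe set 0.50 to 0.87, PGAM2 0.52 to 0.78 and PFKM 0.83 to 1.05. Whether the probes of any of them were near a ceiling of the scanner, which would limit fold changes and spread, was not tested. In the file's coordinates LDHA is on chromosome 2 from 38036345 to 38047567, ENO3 on chromosome 12 from 49150428 to 49152117, PGAM2 on chromosome 18 from 47352676 to 47354946 and PGK1 on chromosome X from 61625597 to 61764471. The genome version is not readable in the file.

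**Figure D1:**
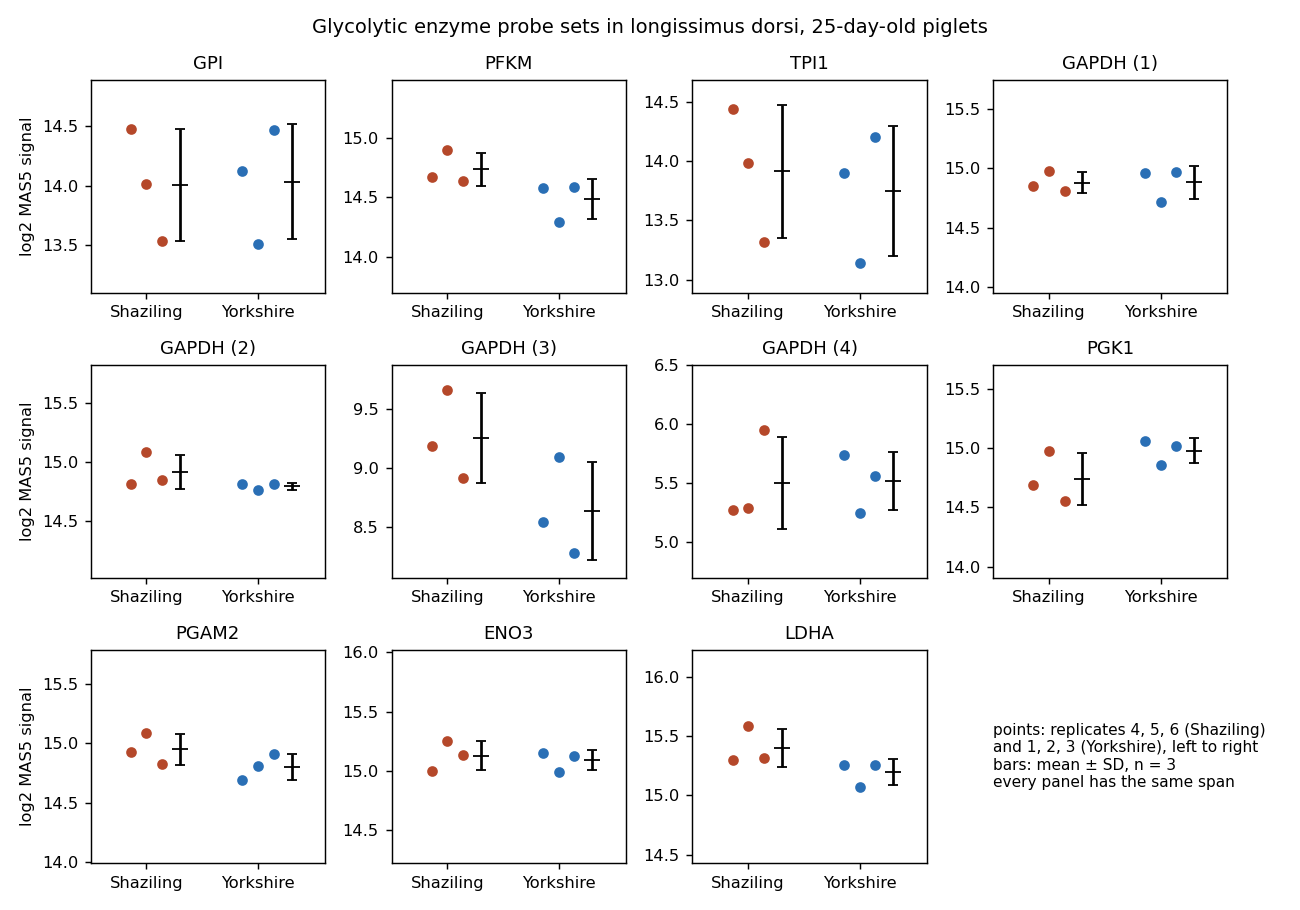
Log2 MAS5 signal (vertical axis) of each of the 11 probe sets in the 3 Shaziling and 3 Yorkshire animals, with the mean and SD of each breed beside the points and the same span in every panel. GAPDH probe sets are numbered by falling mean signal. Only PFKM and LDHA show all Shaziling points above all Yorkshire points, and GPI and TPI1 spread widely in both breeds.

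PFKM and LDHA were the only member probe sets whose breeds did not overlap, 2 of 11 with Shaziling higher and 0 with Shaziling lower. Over all tested probe sets, 7.42% were without overlap and higher in Shaziling and 8.89% without overlap and lower, 16.3% in both directions together, against 18.2% of the members, a share near that of the whole array.

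**Figure D2:**
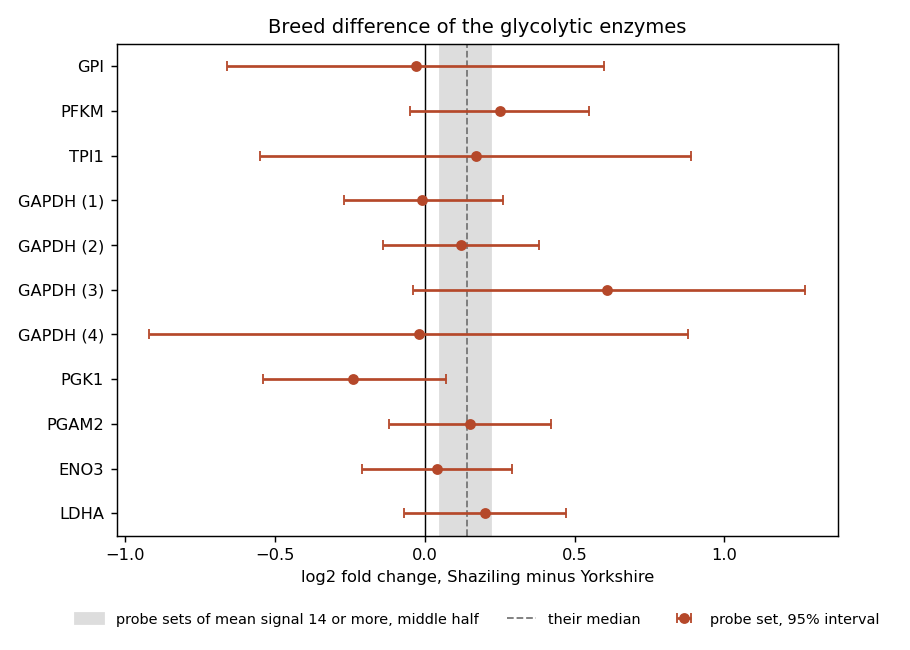
Log2 fold change, Shaziling minus Yorkshire (horizontal axis), of the 11 probe sets with 95% intervals from limma. The grey band spans the 25th to 75th percentile (0.05 to 0.22) of all 209 tested probe sets with a mean log2 signal of 14 or more, and the dashed line marks their median of 0.14. Every interval includes 0.

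Small positive values like those of PFKM, PGAM2 and LDHA were common among the bright probe sets of the array. Of 209 tested probe sets with a mean log2 signal of 14 or more, a limit set after the members' signals were seen, 81.8% had positive log2 fold changes, with a median of 0.14 against -0.04 over all tested probe sets. Of these 209, 28.2% were without overlap and higher in Shaziling, and 0 passed the threshold. They include 8 of the member probe sets, of which 5 were positive, and muscle genes such as ACTA1, CKM and MYH4. The 25th to 75th percentile of the 209 was 0.05 to 0.22. PFKM (0.25) lay above that range, and PGAM2 (0.15) and LDHA (0.20) lay within it. The median deviation of the 209 from their own means was 0.03, 0.15 and 0.05 on Shaziling arrays 4, 5 and 6, and -0.05, -0.07 and -0.05 on Yorkshire arrays 1, 2 and 3. The highest signal of an array was largest on Shaziling array 5 (15.85) and smallest on Yorkshire array 2 (15.34), the arrays on which PFKM and LDHA were highest and lowest. Its part in the values of PFKM and LDHA was not tested beyond other scalings of the arrays. Under quantile normalization and cyclic loess both values were smaller, as given above, and with arrays centred on the median of tested probe sets both were larger, 0.33 for PFKM and 0.28 for LDHA.

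Of the 8 member probe sets with a mean signal of 14 or more, GPI varied widely within a breed (SD 0.48) and the other members little. The SD within breeds was 0.11 to 0.17 for PFKM, PGK1, PGAM2, ENO3, LDHA and the first GAPDH probe set, where the median was 0.13 over probe sets with a mean signal of 14 or more and 0.34 over all tested probe sets.

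With the brightest probe set taken for each gene, GPI and TPI1 stood apart from the other members by their spread. Of the other isozymes, 3 varied in a like way over the animals. PKM, the pyruvate kinase of muscle and most other tissues, had 11.72, 11.47 and 10.46 in Shaziling and 11.35, 10.72 and 11.48 in Yorkshire. PGAM1, the mutase made in most cells, had 11.29, 10.97 and 10.82 against 11.09, 10.68 and 11.55 in Yorkshire. HK1, the widely expressed hexokinase, named here from a title that calls it similar to hexokinase 1, had 8.70, 7.33 and 7.37 against 8.43, 7.76 and 9.38 in Yorkshire. In these genes, GPI and TPI1 included, the highest animal was Shaziling replicate 4 or Yorkshire replicate 3, and Yorkshire replicate 2 was below both. ALDOC, by contrast, was highest in Shaziling replicate 6, with 7.52, 7.78 and 8.10 in Shaziling and 7.40, 7.28 and 7.63 in Yorkshire. The percent of Present calls was 59.9, 56.3 and 58.1 on Shaziling arrays 4, 5 and 6 and 59.9, 58.2 and 60.6 on Yorkshire arrays 1, 2 and 3. The 4 tested of 6 markers of smooth muscle and pericytes had mean deviations of 0.63, -0.11 and -0.35 in Shaziling and 0.15, -0.89 and 0.57 in Yorkshire. The 5 tested of 7 endothelial markers had 0.68, 0.18 and -0.30 in Shaziling and -0.08, -0.90 and 0.41 in Yorkshire. Their summed log2 level was 12.78 to 13.76 against 12.29 to 13.79 in Yorkshire for smooth muscle and pericytes, and 11.96 to 12.82 against 11.88 to 12.95 in Yorkshire for endothelium. None of these markers' genes on the array was without a Present call. Other lists were low on Yorkshire array 2 as well. The 11 slow fibre genes had -0.03, -0.29 and 0.00 in Shaziling and 0.29, -0.33 and 0.35 in Yorkshire. The 5 fibroblast genes had 0.09, -0.45 and 0.11 in Shaziling and 0.31, -0.36 and 0.31 in Yorkshire. The 9 skeletal muscle genes had 0.01, 0.21 and 0.05 in Shaziling and 0.07, -0.28 and -0.07 in Yorkshire. The part of any of these lists in the spread of GPI and TPI1 was not tested.

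**Figure D3:**
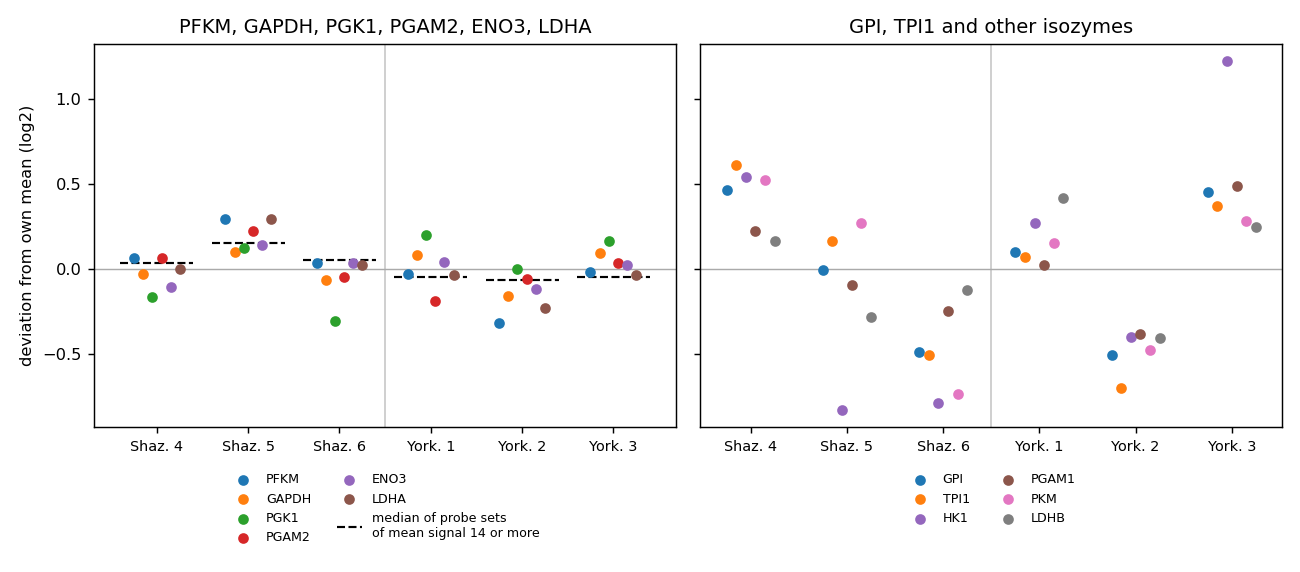
Deviation of each gene's log2 signal from its own mean over 6 arrays (vertical axis), by array. On the left, PFKM, GAPDH, PGK1, PGAM2, ENO3 and LDHA stay between -0.32 and 0.29, with the median of probe sets of mean signal 14 or more as dashed lines. On the right, GPI and TPI1 are shown with HK1, PGAM1, PKM and LDHB, all of them higher on Shaziling array 4 and Yorkshire array 3 than on Yorkshire array 2.

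The balance between muscle isozymes and other isozymes was measured within each array for the 2 of 6 listed pairs with both genes tested. LDHA minus LDHB, the heart-type subunit, was 1.49, 2.24 and 1.80 in Shaziling and 1.21, 1.84 and 1.38 in Yorkshire, with means of 1.84 ± 0.37 and 1.48 ± 0.33 (log2, SD, n = 3 each). The difference between breeds was 0.37 (two-sided exact permutation p = 0.3, adjusted over the 2 pairs 0.5). PGAM2 minus PGAM1 averaged 3.92 ± 0.25 in Shaziling and 3.69 ± 0.40 in Yorkshire (log2, SD, n = 3 each), a difference of 0.23 (two-sided exact permutation p = 0.5, adjusted over the 2 pairs 0.5). With 3 arrays against 3 the smallest possible p is 0.1. The breeds overlapped in both balances. With 1 replicate left out, the difference ran from 0.17 (without Shaziling replicate 5) to 0.55 (without Yorkshire replicate 2) for LDHA and LDHB, and from 0.06 (without Yorkshire replicate 3) to 0.45 (without Yorkshire replicate 2) for the mutases. The gene ID that the file gives for the LDHB probe set belongs to a pseudogene on chromosome 2 in the RefSeq gene table of Sscrofa11.1, which also lists coding LDHB genes on chromosomes 5 and 2, so which of them the probe set reads is uncertain.

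The other genes of the pathway were read from lists of isozymes, regulators, transporters and branch points. No tested gene of these lists passed the threshold (0.215% of all tested probe sets did). An unadjusted limma p under 0.05 was found for 3 of 15 branch point genes and 1 of 3 transport genes. It was found for 0 of 5 other isozymes and 0 of 5 regulators, against 10.4% of all tested probe sets. Of 16 other isozymes, 10 were on the array and 5 were tested, 2 positive and 3 negative, with a median of -0.08. HK1 had a log2 fold change of -0.72 (SE 0.47), ALDOC, the aldolase of brain, 0.36 (SE 0.26), LDHB -0.17 (SE 0.22) and PGAM1 -0.08 (SE 0.25). PKM had 0.03 (SE 0.34). HK3, a hexokinase of white blood cells, was Present on no array.

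Among 15 regulators and enzymes of the reverse route, 5 were tested, 1 positive and 4 negative, with a median of -0.25. PC, the pyruvate carboxylase, had -0.69 (SE 0.40), the muscle fructose bisphosphatase FBP2 -0.25 (SE 0.17), the phosphatase G6PC3 -0.41 (SE 0.41) and HIF1A, a transcription factor of the hypoxia response, 0.32 (SE 0.41). Without Shaziling replicate 5 the median of the regulators was -0.15. Of 12 genes of glucose and lactate transport, 3 were tested and all were negative. TBC1D1, a regulator of glucose transporter traffic, had 7.91, 6.28 and 8.08 in Shaziling and 8.64, 8.30 and 8.64 in Yorkshire, without overlap between the breeds. Its log2 fold change was -1.10 (SE 0.44, limma adjusted p = 0.416), while a further TBC1D1 probe set had 0.17 (SE 0.44). The lactate exporter SLC16A3 had -0.66 (SE 0.40) and its chaperone BSG -0.15 (SE 0.32). The glucose transporters SLC2A4 and SLC2A3 were Present on no array, and no level is given for them.

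Of 18 genes at the branch points, 15 were tested, 5 positive and 10 negative, with a median of -0.19. Of these 15, 6 were without overlap and lower in Shaziling and 0 higher, where 8.89% of all tested probe sets were without overlap and lower. The 6 were GOT1, TKT and PDHA1, given below, and MDH1, MPC1 and RPIA, whose values were small. MDH1 had -0.25 (SE 0.13), MPC1 -0.24 (SE 0.13) and RPIA -0.25 (SE 0.19). GOT1, the cytosolic aspartate transaminase of the malate-aspartate shuttle, had 12.17, 11.49 and 11.24 in Shaziling and 12.88, 12.73 and 12.31 in Yorkshire; the log2 fold change was -1.01 (SE 0.26, limma adjusted p = 0.224). TKT, the transketolase of the pentose phosphate pathway, had 8.34, 7.30 and 7.63 in Shaziling and 8.62, 8.42 and 8.80 in Yorkshire, a log2 fold change of -0.86 ± 0.30 (SE), with an adjusted p of 0.352 in limma. TALDO1, the transaldolase of the same pathway, had -0.60 (SE 0.28). PDHA1, of the complex that takes pyruvate into the citric acid cycle, had -0.77 (SE 0.21, limma adjusted p = 0.267). None passed the threshold, and PGM1, which links glycolysis to glycogen, had 0.08 (SE 0.10). Without Shaziling replicate 5 the median of the branch points was -0.08, and without Shaziling replicate 4 it was -0.32.

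**Figure D4:**
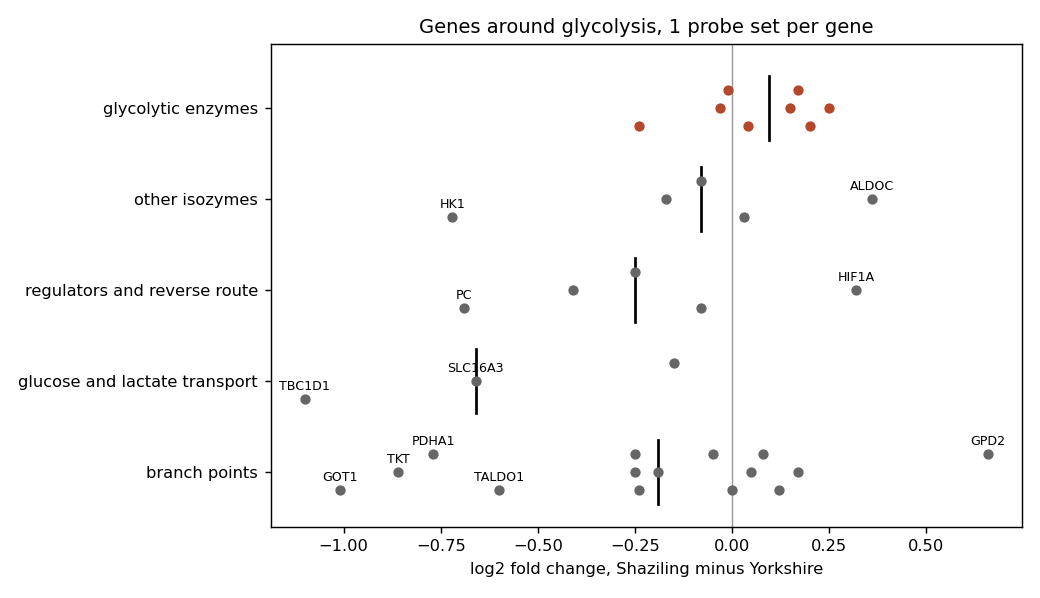
Log2 fold change, Shaziling minus Yorkshire (horizontal axis), of 1 probe set per gene (points) for the 8 glycolytic enzymes and 4 lists of neighbouring genes, with each list's median as a black line. The glycolytic enzymes lie between -0.24 and 0.25, and GOT1, TKT, PDHA1 and TBC1D1 have the lowest values among the others.

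Of 4978 probe sets with a named gene and Present calls on all 6 arrays, those most like the mean profile of the 8 enzymes were sought by the root mean square difference of log2 deviations over the 6 arrays. The mean profile was 0.11, 0.16 and -0.17 in Shaziling replicates 4, 5 and 6 and 0.03, -0.26 and 0.13 in Yorkshire replicates 1, 2 and 3. Not all members shared it. In Shaziling replicate 6, GPI (-0.49), TPI1 (-0.51) and PGK1 (-0.31) were low, while the other members had -0.07 to 0.03. In Yorkshire replicate 3, GPI had 0.45 and TPI1 0.37, and the other members -0.04 to 0.16. The nearest genes were OSTF1 (0.0635), CAP2 (0.0674), COX6C (0.0680), FAM120A (0.0764) and SPR (0.0779), each low on Yorkshire array 2 and Shaziling array 6. As the profile is nearly flat, a gene of small changes comes close to it by this measure.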

How the data were processed

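The authors deposited log2 signals, and the submitters' processing notes name MAS5 without a version. Of 2 deposited tables with the same signals (0 differing values), the one with calls and annotation was used. Alignment identity is a percent given in the authors' table, per the file headers. Each array had a 2% trimmed mean of 500.1 to 500.2 on the linear scale, so the authors' scaling had set them to a common level. Array number and signal over background limit the precision.

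Members and lists were chosen with earlier results of these data known. Symbols were updated by Entrez ID through the RefSeq table of Sscrofa11.1. Probe sets Present on at least 3 of 6 arrays were fitted with limma 3.58.1 in R 4.3.3 (lmFit, eBayes with trend=TRUE), without further normalization. The step was tested on simulated data, with changes put on tested probe sets at random. It recovered 21.8% of changes of log2 size 1, 69.4% of size 2, 87.6% of size 3 and 95% of size 4. For a gene with several probe sets, the one of highest mean signal was used in lists. Named genes were the members, genes past the threshold and up to 4 of smallest p in each list, both genes of each isozyme pair, up to 2 markers of a cell type list whose summed level moved with breed (not reported here), and the 5 nearest profiles. PKM, PGM1, MDH1, MPC1, RPIA, the skeletal muscle markers, genes Present on no array and the aldolase probe set fall outside this rule. They were chosen after their values were seen. Alternatives were other filters, quantile normalization, cyclic loess, median centring, other variance models, array weights, log2(signal + 16), each replicate left out in turn, and a covariate added later.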

Additional observations from a re-analysis of the deposited data

How the results depend on the processing

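The number of glycolytic enzyme probe sets past the threshold was 0 in all 18 alternatives. At an unadjusted limma p under 0.05 there were 0 to 2 of the 11. The 2 were with array weights, where 2948 of 14413 tested probe sets were at that level, against 1499 in the main fit. PFKM, PGK1, PGAM2, LDHA and the third GAPDH probe set kept their sign in all 17 alternatives run on them. The median of the 8 enzymes ranged from -0.05 to 0.21 over the alternatives. Other members changed sign under some settings, and the cause was not tested. With arrays centred on the median, GPI had 0.05, the first GAPDH probe set 0.07 and the dimmest 0.06. With the covariate they had 0.27, 0.01 and 0.05. TPI1 had -0.13 with array weights. Under quantile normalization and cyclic loess the second GAPDH probe set had -0.02 and -0.02, the dimmest 0.00 and 0.01, and ENO3 -0.10 and -0.10. With 1 replicate left out, values ranged from -0.29 to 0.21 for GPI, -0.14 to 0.47 for TPI1, -0.09 to 0.04 for the first and -0.24 to 0.10 for the dimmest GAPDH probe set, and -0.02 to 0.11 for ENO3. The median of the other isozymes ranged from -0.30 to 0.16 and that of the transport genes from -1.16 to -0.16 over all alternatives. The median of the branch points ranged from -0.32 to -0.08 with 1 replicate left out, and that of the regulators ranged from -0.42 with array weights to -0.15 without Shaziling replicate 5. Over all tested probe sets 31 passed, against 13 with no filter on dim probe sets, 19 with probe sets Present on all 6 arrays, 8 without the variance trend, 364 with array weights and 0 to 27 with 1 replicate left out. Those at 0 were without Shaziling replicate 6 (1096 at an unadjusted p under 0.05) and without Yorkshire replicate 1 (1020). No paired analysis was possible because the breeds share no replicate numbers.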

Other observations

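Markers of fibre types, adipocytes, endothelium, leukocytes, fibroblasts, and smooth muscle and pericytes were read from lists. Of these genes, 0 passed the threshold in limma, where 0.215% of all tested probe sets did. At an unadjusted limma p under 0.05 there were 0 fast fibre, 2 slow fibre, 1 adipocyte and 2 endothelial genes. There were 0 leukocyte, fibroblast, and smooth muscle and pericyte genes at that level. Over all tested probe sets the share was 10.4%. The fast fibre list had 7 tested genes, 7 positive, and a median of 0.12. All of them but ATP2A1 had a mean log2 signal of 14 or more. Of the 209 probe sets that bright, 81.8% were positive, with a median of 0.14, against 46.2% positive of all tested probe sets. The slow fibre list had 11 tested genes, 6 positive, and a median of 0.00. The 5 adipocyte, 5 endothelial, 4 leukocyte, 5 fibroblast and 4 smooth muscle and pericyte genes had medians of -0.27, 0.05, 0.27, -0.18 and -0.08. No red blood cell gene was tested (0 of 8).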
